A study of Sus scrofa with 3 samples.

Results

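Liver transcripts of 8 genes that control the opposing routes of gluconeogenesis and glycolysis were measured in 3 pooled RNA-Seq libraries from Wuzhishan miniature pigs, a small Chinese breed. The genes were chosen by name as the enzymes of the regulated steps of liver glucose metabolism together with the main hepatocyte glucose transporter. Of 9 names, 8 matched a feature (PCK1, PCK2, PC, FBP1, PFKL, PFKFB1, PKLR and SLC2A2) among 22945 mRNA features and 34579 features in all. G6PC, the catalytic subunit of glucose-6-phosphatase, was not analysed here. All 3 groups were male pigs on a diet rich in fat and cholesterol (HFC), 6 to 7 months old by the labels. The study gives that age for the pigs when obtained, before weeks of acclimation and of diet, so they were older at sampling. IM pigs were intact males that had a sham operation, CM pigs were castrated, and CMT pigs were castrated and received weekly intramuscular testosterone propionate from the day of castration. Equal amounts of liver total RNA from 3 pigs per group were pooled according to the labels, while the study describes more pigs per group, so the size of each pool is uncertain. This left 1 library per group and no spread between animals. Every difference below is therefore a difference between libraries, without a replicate check and without a p-value.

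Gluconeogenesis builds glucose from lactate, alanine and glycerol, and in the liver it shares most of its reversible enzymes with glycolysis. The routes part at a few irreversible steps. Pyruvate carboxylase and phosphoenolpyruvate carboxykinase bypass pyruvate kinase, fructose bisphosphatase opposes phosphofructokinase, and glucose-6-phosphatase releases free glucose. Glucagon, insulin and glucocorticoids set the transcript levels of several of these enzymes, which is why PCK1 is widely read as a marker of the fasting programme of hepatocytes.

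The deposited values are labelled FPKM, by definition a count of fragments divided by exon length and by library size. They give a level per transcript length and can be compared between genes of a library. Within a gene they were whole multiples of a step, from which reads were recovered for 95.1% of the features above 0. The recovered totals were 32197633 reads in IM pigs, 36126736 in CM pigs and 25419904 in CMT pigs. The intervals given below are 95% exact binomial intervals on those reads and cover counting error only. They treat each read as independent. Sequencing was paired-end and both mates of a fragment may be counted, so the intervals may be too narrow. An interval that ends close to 1 is therefore not a clear difference. The deposited scale did not follow these totals. The divisors behind the values, 2.51 for IM, 3.42 for CM and 2.04 for CMT, were far smaller than these totals would give. The levels printed here are therefore several times higher than standard FPKM from the same reads. An FPKM of 1 on this scale is a lower level than a standard FPKM of 1. Scaling each library to its recovered reads multiplied every CM to IM ratio by 1.21, every CMT to CM ratio by 0.848 and every CMT to IM ratio by 1.03. It moved the median log2 ratio of all mRNA features from -0.02 to 0.26 in CM versus IM and from 0.013 to -0.23 in CMT versus CM. Values are on the deposited scale unless another scale is named. Calls on the other scales are given beside those of the members and of the pathway lists.

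PCK1, the cytosolic phosphoenolpyruvate carboxykinase that makes phosphoenolpyruvate from oxaloacetate, had the highest level of the 8 genes in each library. Its FPKM was 15266 in IM pigs, 6514 in CM pigs and 11000 in CMT pigs, resting on 99280, 57722 and 58142 recovered reads. CM was the low library, and CMT lay between CM and IM. In CM the level was 2.34-fold lower than in IM (interval 2.32 to 2.37). In CMT it was 1.69-fold higher than in CM (1.67 to 1.71) and 1.39-fold lower than in IM (1.37 to 1.40). Scaled to recovered reads, PCK1 was 1.93-fold lower in CM than in IM and 1.43-fold higher in CMT than in CM, so its place below IM stayed past 1.5-fold and its difference between CMT and CM did not. Among all mRNA features PCK1 ranked 79 by level in IM pigs, 169 in CM pigs and 116 in CMT pigs.

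PCK2, the mitochondrial form of the same enzyme, stood at an FPKM of 3089 in IM pigs, 2259.9 in CM pigs and 2894 in CMT pigs. The order of the libraries was that of PCK1, with smaller distances. CM was 1.37-fold lower than IM (1.33 to 1.41) and 1.28-fold lower than CMT (1.24 to 1.32), while CMT and IM were 1.07-fold apart (1.03 to 1.10). On the scale of recovered reads the difference between CM and IM was 1.13-fold.

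PC, pyruvate carboxylase, the mitochondrial biotin enzyme that turns pyruvate into oxaloacetate, had an FPKM of 2199 in IM pigs, 991 in CM pigs and 2691 in CMT pigs. CM was again the low library, and CMT was the high one. The CM level was 2.22-fold below IM (2.16 to 2.28). The CMT level was 2.72-fold above CM (2.64 to 2.80) and 1.22-fold above IM (1.19 to 1.26). Scaled to recovered reads, the first of these became 1.83-fold and the second 2.30-fold, both still past 1.5-fold. A second feature, LOC100514752, which the study's annotation pairs with the same enzyme, had 1077 in IM pigs, 538 in CM pigs and 1432 in CMT pigs. It was lower in CM than in IM, with an interval of 1.90 to 2.11-fold, and 2.66-fold higher in CMT than in CM (2.53 to 2.80). These were 1.65-fold and 2.25-fold when scaled to recovered reads. How reads were divided between it and PC is not given in the sources used here. LOC100514752 was found through the study's lists of changed genes from these libraries, so its direction is not independent evidence.

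FBP1, the liver fructose bisphosphatase that releases fructose 6-phosphate towards glucose, did not share that order. Its FPKM was 5216 in IM pigs, 4199.8 in CM pigs and 3278 in CMT pigs, so the lowest library was the testosterone-treated one. CMT was 1.59-fold lower than IM (1.53 to 1.65) and 1.28-fold lower than CM (1.23 to 1.33). CM lay 1.24-fold below IM (1.21 to 1.28), a distance that shrank to 1.02-fold when scaled to recovered reads. On that scale FBP1 was 1.51-fold lower in CMT than in CM. FBP1 was the member whose CMT level stood lowest relative to IM, with a log2 ratio of -0.67, against a range of -0.47 to 0.34 for the other 7.

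**Figure D1:**
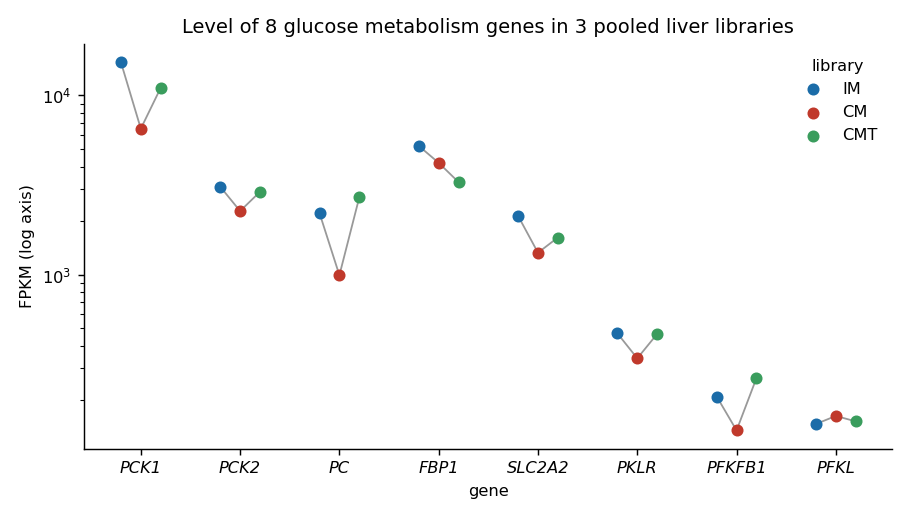
FPKM of the 8 genes (log axis) in the IM, CM and CMT libraries, 1 point per library and lines joining the points of a gene. CM is the lowest point for PCK1, PCK2, PC, SLC2A2, PKLR and PFKFB1, CMT is the lowest for FBP1, and the 3 points of PFKL lie between 147 and 163.

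The glycolytic members were expressed at lower levels. PFKL, the liver subunit of phosphofructokinase, which commits sugar to glycolysis, had an FPKM of 147 in IM pigs, 163 in CM pigs and 152 in CMT pigs. These were the closest 3 values of any member. CM was 1.11-fold above IM (1.02 to 1.20), and the interval of CMT to CM, 0.857 to 1.01, included 1. PFKL was the 1 member with a higher level in CM than in IM, and scaled to recovered reads that difference was 1.35-fold.

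PFKFB1, the liver bifunctional enzyme that makes and degrades the sugar bisphosphate activating phosphofructokinase, had an FPKM of 209 in IM pigs, 135 in CM pigs and 264 in CMT pigs. CM was the low library and CMT the high one, as for PC. The level was 1.54-fold lower in CM than in IM, 1.96-fold higher in CMT than in CM and 1.27-fold higher in CMT than in IM. Whole reads could not be recovered for PFKFB1, so these ratios carry no interval. Scaled to the recovered total of each library they were 1.27-fold lower, 1.66-fold higher and 1.30-fold higher. LOC100736786, annotated as similar to PFKFB1, had 121 in IM pigs, 85.2 in CM pigs and 156 in CMT pigs. It was 1.42-fold lower in CM than in IM (1.32 to 1.52) and 1.83-fold higher in CMT than in CM (1.71 to 1.96), which became 1.17-fold and 1.55-fold when scaled to recovered reads. This copy too was found through the study's lists of changed genes, so its direction is not independent evidence.

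PKLR, the liver and red cell pyruvate kinase that completes glycolysis, stood at an FPKM of 469 in IM pigs, 341 in CM pigs and 466 in CMT pigs. Its IM and CMT values lay together, with a ratio of 0.992 and an interval of 0.934 to 1.05 that included 1. The CM value was 1.38-fold below IM (1.30 to 1.46) and 1.37-fold below CMT (1.29 to 1.45). Scaled to recovered reads the CM value was 1.13-fold below IM.

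SLC2A2, which encodes GLUT2, the transporter that carries glucose across the hepatocyte membrane in both directions, had an FPKM of 2122 in IM pigs, 1323 in CM pigs and 1609 in CMT pigs. IM was the high library, and CMT was nearer to CM than to IM. CM was 1.60-fold lower than IM (1.56 to 1.65), and CMT was 1.22-fold higher than CM (1.18 to 1.26) and 1.32-fold lower than IM (1.28 to 1.36). When libraries were scaled to recovered reads, the CM level was 1.32-fold below IM and the CMT level 1.03-fold above CM.

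The order of levels was PCK1, FBP1, PCK2, PC, SLC2A2, PKLR, PFKFB1 and PFKL in IM and in CMT. In CM SLC2A2 stood above PC, and PFKL above PFKFB1. The highest member exceeded the lowest by 104-fold in IM pigs, 48.3-fold in CM pigs and 72.6-fold in CMT pigs. The closest neighbours in IM were PC and SLC2A2, 1.04-fold apart, and without replicates no neighbours could be set apart beyond the spread of animals.

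The comparison of CM with IM asks what castration changes under the diet. In the deposited values 4 of 8 members, PCK1, PC, SLC2A2 and PFKFB1, were at least 1.5-fold lower in CM, against 12.1% of the 15613 mRNA features that reached an FPKM of 1 in every library. No member was at least 1.5-fold higher, against 11.1% of those features. All 8 members had an FPKM above that minimum. Scaled to recovered reads, 2 members, PCK1 and PC, stayed at least 1.5-fold lower, against 6.42%. The split of all features past 1.5-fold moved with the scale as well, from 48.0% higher in CM as deposited to 77.4% higher when scaled to recovered reads. PCK1, PC, SLC2A2 and PFKFB1 stand in the study's own lists of changed genes from these libraries, so their direction is not independent evidence.

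The comparison of CMT with CM asks what testosterone replacement changes in castrated pigs, and it shares the CM library with the first. As deposited, 3 of 8 members, PC, PFKFB1 and PCK1, were at least 1.5-fold higher in CMT, against 12.1% of features, and none was at least 1.5-fold lower, against 13.5%. Scaled to recovered reads, PC and PFKFB1 remained at least 1.5-fold higher, against 6.82%, and FBP1 became at least 1.5-fold lower, against 22.4%. The share of higher values among all features past 1.5-fold was 47.3% as deposited and 23.3% on that scale. Between CMT and IM, which share both libraries with the other comparisons, FBP1 was the single member past 1.5-fold, lower in CMT, against 10.1% of features, and none was higher, against 6.67%. FBP1 kept that place when scaled to recovered reads, against 9.22%.

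The median log2 ratio of the 8 members was -0.54 in CM versus IM, 0.40 in CMT versus CM and -0.053 in CMT versus IM, beside medians of -0.02, 0.013 and -0.0072 over all 15613 features. Hepatocyte markers were lower in CM as well. Of 13 such markers, among them ALB, APOA1, TF and ASGR1, 1 had a higher level in CM than in IM, and their median log2 ratio was -0.49 in CM versus IM and 0.37 in CMT versus CM. As deposited, 3 (FGA, FGB and TAT) were at least 1.5-fold lower in CM, against 12.1% of features. On the scale of recovered reads the marker medians were -0.21 and 0.13, beside 0.26 and -0.23 for all features. The summed FPKM of the 13 markers was 1217361 in IM pigs, 874592 in CM pigs and 997040 in CMT pigs, and none was listed at 0. In a bulk library fewer hepatocytes and less RNA per hepatocyte cannot be told apart. Scaled by the median ratio of these markers, a scale chosen after seeing the data, PCK1 and PC were still lower in CM than in IM by 1.5-fold or more, with log2 ratios of -0.73 and -0.66, against 4.06% of features. PC was then the 1 member at least 1.5-fold higher in CMT than in CM, against 4.61%, and FBP1 the 1 member lower, against 35% in CMT versus CM and 8.85% in CMT versus IM. PFKL was at least 1.5-fold higher in CM than in IM on that scale, against 39.1%. PCK2, FBP1 and PKLR changed the sign of their CM to IM ratio there, with log2 ratios of 0.043, 0.18 and 0.032.

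**Figure D2:**
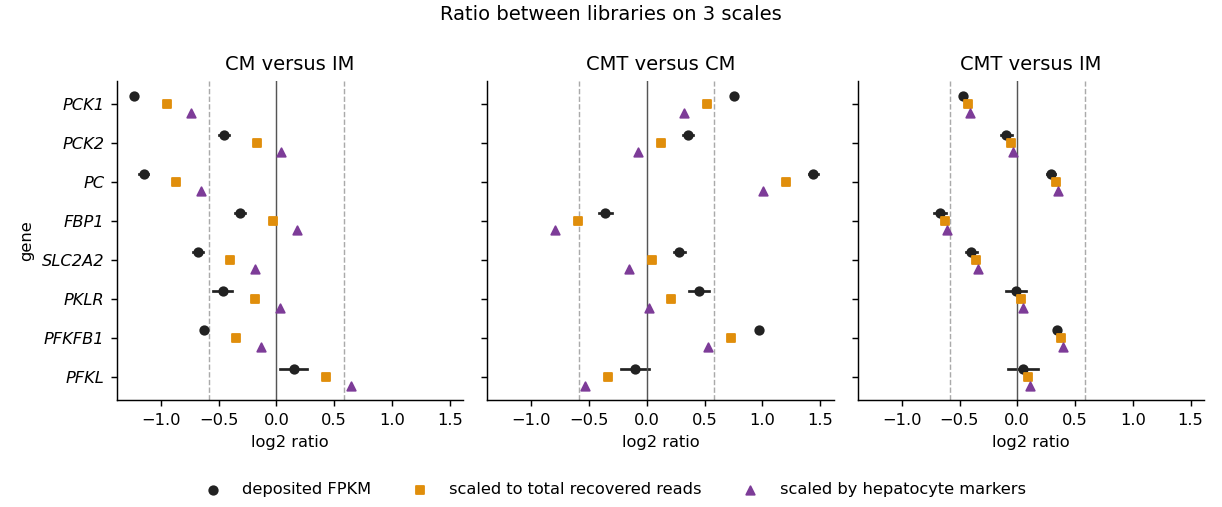
log2 ratio of the 8 genes in 3 comparisons, from the deposited FPKM (circles, with 95% counting intervals where reads were recovered), after scaling to recovered reads (squares) and after scaling by hepatocyte markers (triangles); dashed lines mark 1.5-fold. PCK1 and PC lie left of the lower line on all 3 scales in CM versus IM, PC lies right of the upper line on all 3 in CMT versus CM, and FBP1 lies left of the lower line on all 3 in CMT versus IM.

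Ratios of 2 genes within a library do not depend on how the library was scaled. PCK1 relative to FBP1 was 2.93 in IM pigs, 1.55 in CM pigs and 3.36 in CMT pigs. The ratio was 1.89-fold lower in CM than in IM (1.83 to 1.95) and 2.16-fold higher in CMT than in CM (2.08 to 2.25), so the libraries differed unequally in these gluconeogenic enzymes. PCK1 relative to PCK2 was 4.94 in IM pigs, 2.88 in CM pigs and 3.80 in CMT pigs, which placed CM 1.71-fold below IM (1.66 to 1.77).

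PC relative to FBP1 differed most between CM and CMT among the member pairs examined, at 0.421 in IM pigs, 0.236 in CM pigs and 0.821 in CMT pigs. It was 3.48-fold higher in CMT than in CM (3.32 to 3.65). PCK1 relative to PC was nearly level between IM and CM, at 6.94 and 6.57, and was 4.09 in CMT, 1.61-fold below CM (1.56 to 1.66). PCK2 relative to PKLR, a gluconeogenic over a glycolytic gene, was 6.58, 6.63 and 6.21, and the interval of CM to IM, 0.945 to 1.07, included 1.

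Against ALB, albumin, the main plasma protein made by hepatocytes, PCK1 was 1.62-fold lower in CM than in IM (1.60 to 1.63) and PC 1.53-fold lower (1.49 to 1.58). On the same footing PCK1 was 1.12-fold higher in CMT than in IM (1.11 to 1.13), the reverse of the order of its FPKM, and PC was 1.90-fold higher (1.85 to 1.95). ALB itself was lower in CMT than in IM, with a log2 ratio of -0.63. Against GAPDH, a shared enzyme of both routes, PCK1 was 1.98-fold lower in CM than in IM (1.94 to 2.02) and PC 1.87-fold lower (1.81 to 1.94). In CMT versus IM, PCK1 relative to GAPDH was 1.63-fold lower (1.60 to 1.67) and PC relative to GAPDH 1.04-fold higher (1.01 to 1.07). The order of PCK1 in CMT and IM therefore depended on the gene it was set against. FBP1 relative to GAPDH was 1.05-fold lower in CM than in IM (1.01 to 1.09) and 1.79-fold lower in CMT than in CM (1.71 to 1.86). PCK1 relative to PFKL was 104 in IM pigs, 40.1 in CM pigs and 72.6 in CMT pigs, and PC relative to PFKL was 15.0, 6.10 and 17.8.

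Among the features summed for each step, the liver forms made up most in all 3 libraries. PCK1 gave 83.2% of the summed PCK1 and PCK2 FPKM in IM pigs, 74.2% in CM pigs and 79.2% in CMT pigs. FBP1 gave at least 98.9% of the fructose bisphosphatase FPKM, and FBP2, the muscle form, had 25.0 in IM pigs, 11.5 in CM pigs and 35.2 in CMT pigs on 22 to 40 reads. PKLR gave 80.2%, 73.0% and 81.9% of pyruvate kinase, the rest being PKM, with an FPKM of 116, 126 and 103. PFKL gave 67.7%, 66.1% and 69.4% of phosphofructokinase. PFKFB1 gave 89.8%, 79.5% and 89.2% of the summed PFKFB1, PFKFB2 and PFKFB4 FPKM. That sum leaves out LOC100516289, which the annotation pairs with PFKFB3, at 31.5 in IM pigs, 103 in CM pigs and 36.7 in CMT pigs. It also leaves out LOC100736786, annotated as similar to PFKFB1, so these are not shares of all bifunctional enzyme features. SLC2A2 gave 92.3%, 85.2% and 87.5% of the 5 glucose transporters compared. The share of the liver form was lowest in CM for PCK, pyruvate kinase, phosphofructokinase, PFKFB and the transporters, and was highest in CM for fructose bisphosphatase.

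**Figure D3:**
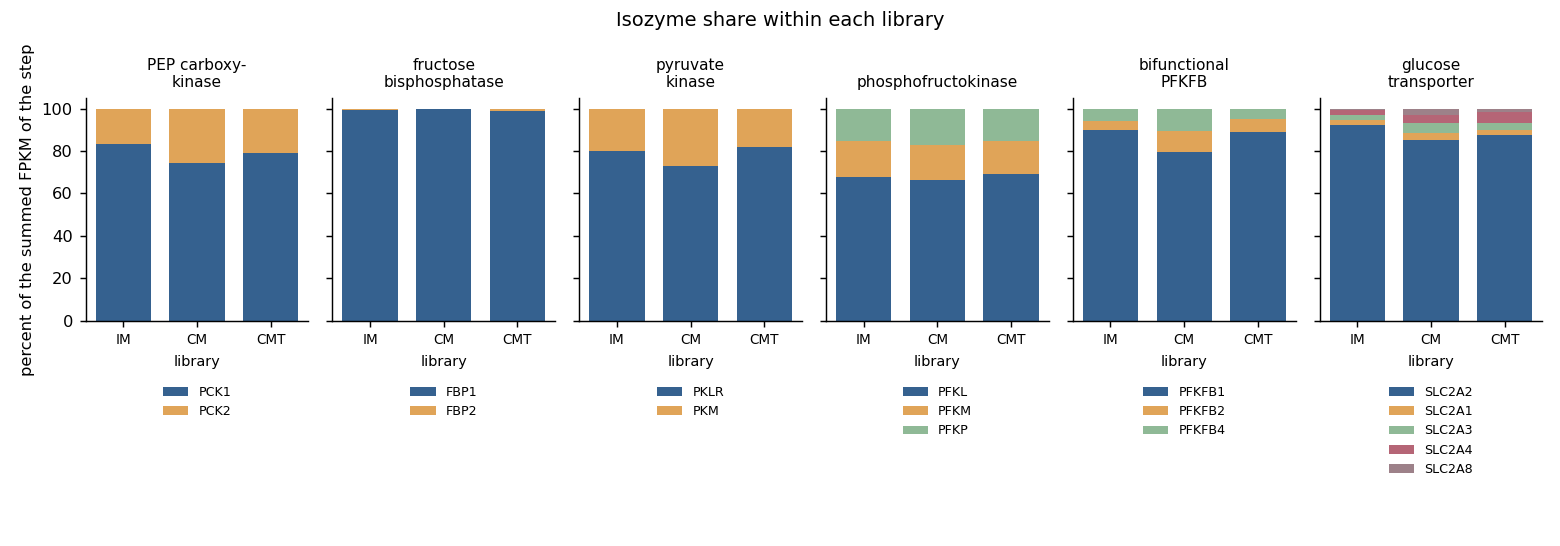
Share of each isozyme in the summed FPKM of its step, in percent, for the IM, CM and CMT libraries, with 1 panel per step. The share of PCK1 is 83.2% in IM and 74.2% in CM. That of PFKFB1 among PFKFB1, PFKFB2 and PFKFB4 is 89.8% and 79.5%.

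SLC37A4, the transporter that feeds glucose-6-phosphatase with its substrate, had an FPKM of 2769 in IM pigs, 1277 in CM pigs and 1707 in CMT pigs. CM was the low library, as for PCK1 and PC. GCKR, a regulatory protein of sugar phosphorylation, had 99.3, 71.2 and 112.

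Of the other 24 glycolysis and gluconeogenesis genes above the minimum, 4 were higher and 3 lower by 1.5-fold or more in CM versus IM, and the median log2 ratio was -0.031. In CMT versus CM the counts were 3 and 2, and the median was 0.012. On the scale of recovered reads 6 were higher and 3 lower in CM versus IM, and 2 higher and 5 lower in CMT versus CM. PFKFB2 was at 9.62 in IM pigs, 16.4 in CM pigs and 16.8 in CMT pigs, and HK3 at 30.2, 31.1 and 18.7. LOC100516289, which the annotation pairs with PFKFB3, had 31.5 in IM pigs, 103 in CM pigs and 36.7 in CMT pigs.

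Genes that bring substrate to gluconeogenesis held the widest differences of the pathway lists. SDS, serine dehydratase, which makes pyruvate from serine, had an FPKM of 12000.3 in IM pigs, 424 in CM pigs and 4697 in CMT pigs. GPT2, the mitochondrial alanine transaminase, had 241, 648 and 17.0, and AQP9, the hepatocyte glycerol channel, had 427, 795 and 36.6. These 2 genes were highest in CM and lowest in CMT, the opposite of PC. PDK4, which inhibits the use of pyruvate by pyruvate dehydrogenase, had 1046 in IM pigs, 905 in CM pigs and 216 in CMT pigs, and GPT had 42.8, 58.5 and 21.0. Of 20 genes in this list, 2 were higher by 1.5-fold or more (GPT2, AQP9) and 2 lower (SDS, MDH2) in CM than in IM, with a median log2 ratio of 0.023. In CMT versus CM 3 were higher (SDS, MDH1, MDH2) and 4 lower (GPT, GPT2, AQP9, PDK4), with a median of 0.0040. Scaling to recovered reads gave 5 higher and 1 lower in the first comparison and 1 higher and 5 lower in the second. All features moved in the same directions on that scale, with 22.4% of them lower by 1.5-fold or more in CMT versus CM.

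The glycogen list held 16 mRNA genes above the minimum, of which 1 was higher and 3 lower by 1.5-fold or more in CM versus IM, with a median log2 ratio of 0.06. GYS2, the liver glycogen synthase, had 2514 in IM pigs, 964 in CM pigs and 1442 in CMT pigs, and GBE1, the branching enzyme, had 895, 550 and 1087. PHKA2, a phosphorylase kinase subunit, had 146, 89.6 and 144. PPP1R3C, a glycogen-targeting phosphatase subunit, was the higher one, at 57.8, 161 and 219. PYGL, the liver glycogen phosphorylase, had 1047, 904 and 1056. In CMT versus CM, 2 (GBE1 and PHKA2) were higher and 3 (GYG2, PPP1R3D and PPP1R3E) lower, with a median of 0.17. On the scale of recovered reads the balance was 5 higher and 1 lower in CM versus IM, and 1 higher and 4 lower in CMT versus CM. This turn was shared with all features.

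Among 12 genes of fructose, galactose and polyol use, 3 were lower in CM than in IM by 1.5-fold or more (SORD, DAK and FUK) and none was higher, with a median log2 ratio of 0.013. SORD, sorbitol dehydrogenase, had 21212 in IM pigs, 7887 in CM pigs and 17264 in CMT pigs. In CMT versus CM 3 were higher (SORD, FUK and GALM) and 1 lower (KHK, ketohexokinase, at 1367, 1693 and 958), with a median of -0.17. Scaling to recovered reads turned the balance of the first comparison to 4 higher and 2 lower, and gave 2 higher and 4 lower in the second. The balance of all features moved the same way. None of 6 pentose phosphate genes was past 1.5-fold in either comparison as deposited, 1 was higher in CM versus IM and 1 lower in CMT versus CM when scaled to recovered reads, and their medians were 0.028 and 0.074. Of 7 other glucose transporters, 2 were higher (SLC2A8 and SLC5A1) and 1 lower (SLC5A9) in CM than in IM, with a median of 0.17, and in CMT versus CM 2 were higher (SLC2A4 and SLC5A9) and 3 lower (SLC2A8, SLC2A13 and SLC5A1), with a median of -0.45. After scaling to recovered reads these were 3 higher and 1 lower, then 0 higher and 4 lower. SLC2A4 was at most 100.01 FPKM in any library, and SLC2A2 was 1323 or more.

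Of 27 regulators of these genes, 10 were lower in CM than in IM by 1.5-fold or more, against 12.1% of all features. Another 2 were higher, against 11.1%, and the median log2 ratio was -0.20. FOXO1, a transcription factor that activates PCK1 when insulin is low, had 265 in IM pigs, 67.1 in CM pigs and 127 in CMT pigs. FOXA2, CEBPB and NR1H4 were lower in CM as well, and so were FOXO3, CREB3L3, MLXIPL, TXNIP, IGFBP1 and TAT, the last of which is also a hepatocyte marker. MLXIPL, the carbohydrate response factor that activates PKLR, had 725, 474 and 731. FOXA1 was higher in CM, at 59.3, 91.0 and 93.3, and TRIB3 rested on an FPKM of 4.35 in IM. In CMT versus CM 8 were higher and 1 lower, with a median of 0.27. Scaled to recovered reads the counts were 7 lower and 5 higher in CM versus IM, with a median of 0.080, and 4 higher and 3 lower in CMT versus CM. On that scale the medians of the other 6 pathway lists lay between 0.25 and 0.45 in CM versus IM, beside 0.26 for all features, and between -0.69 and -0.072 in CMT versus CM, beside -0.23.

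**Figure D4:**
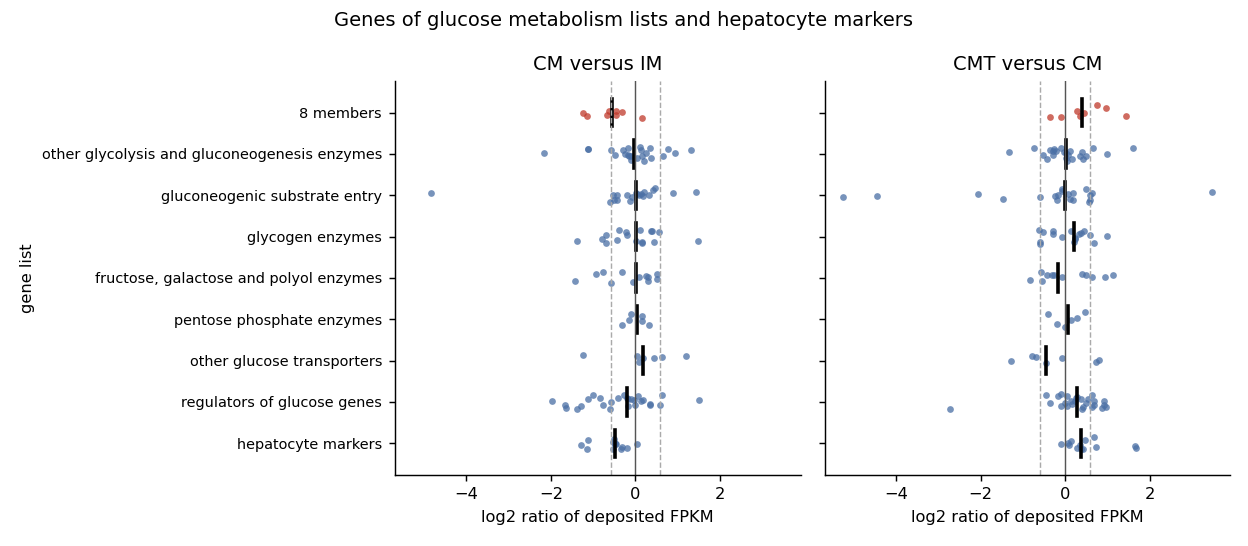
log2 ratio of deposited FPKM for the 8 members (top line) and for the genes of the pathway lists and hepatocyte markers, 1 point per gene, in CM versus IM and CMT versus CM; black bars mark list medians and dashed lines 1.5-fold. The median of the members is -0.54 and 0.40, close to that of the hepatocyte markers at -0.49 and 0.37, while the medians of the other glycolysis and gluconeogenesis enzymes are -0.031 and 0.012.

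Gluconeogenic enzymes are known to be concentrated in periportal hepatocytes and glycolytic ones in perivenous hepatocytes, so markers of both zones were read beside them. Of 8 periportal markers 2 (SDS and HAL) were lower in CM than in IM by 1.5-fold or more and none higher, and the summed FPKM was 32029.5 in IM pigs, 18440.4 in CM pigs and 22096 in CMT pigs. SDS, which also stands on the list of substrate genes, made most of the difference between IM and CM, at 12000.3 and 424. CPS1 had 3664, 3618 and 3172, and CDH1 had 2771, 2586 and 3036. The median log2 ratio of the periportal markers in CM versus IM was -0.18 as deposited. Scaled to recovered reads, 5 of the 8 were higher in CM, with a median of 0.099 beside 0.26 for all features. ASS1, a urea cycle enzyme of the same zone, had 10438, 9309 and 8638. Of 8 perivenous markers 4 were higher and 2 lower in CM versus IM, with summed FPKM of 9916, 23992 and 1965. CYP2E1, at 3148, 14546 and 54.4, made most of the difference in that sum between IM and CM. GLUL had 1789, 3677 and 974. The 2 lower in CM were OAT, at 1300.2, 405 and 688, and SLC1A2, at 123, 6.33 and 88.5. No marker of either zone was listed at 0, and their part in the differences of PCK1 and PC was not tested.

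Markers of other cells in the tissue differed as well. All 10 T and NK cell markers were higher in CM than in IM, none by 1.5-fold as deposited, against 11.1% of all features. Scaled to recovered reads, 6 were higher by 1.5-fold or more, against 21.98% of features. Scaled by hepatocyte markers, 9 were, against 39.1%. Those scales multiplied every CM to IM ratio by 1.21 and 1.41. The summed FPKM of the 10 markers was 1174 in IM pigs, 1443 in CM pigs and 978 in CMT pigs. The 9 macrophage markers summed to 17051, 16922 and 18458, the 10 stellate cell and fibroblast markers to 1960.1, 2054 and 1701, and the 7 endothelial markers to 3715, 3075 and 3471. Among 4 cholangiocyte markers 3 were higher in CM than in IM by 1.5-fold or more, against 11.1% of all features. Their sum was 856, 805 and 1185. The 4 erythroid markers summed to 17238 in IM pigs, 3417 in CM pigs and 5183 in CMT pigs, almost all of it HBB, and 1 of the 4 was listed at 0 in CMT. The 5 muscle markers summed to less than 1 in each library, with 3 of them at 0 in IM and in CM and 4 in CMT. PKLR is also a red cell enzyme. The part of these other cells in the differences of the members was not tested.

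PCK1 had the largest absolute log2 ratio of CM to IM among the members, and the genes nearest to its pattern were ranked by the distance of their 2 log2 ratios, CM to IM and CMT to CM. Among 12126 mRNA features that reached an FPKM of 10 in every library, 68 lay within 0.25 of PCK1. The 5 nearest were SLC5A9, a sodium-coupled sugar transporter, at a distance of 0.036, and ZHX2, a transcription factor, at 0.050, followed by HAMP, which encodes the iron hormone hepcidin, SC5D, an enzyme of sterol synthesis, and BMP6, a signal that induces HAMP. HAMP had 4028 in IM pigs, 1669 in CM pigs and 2875 in CMT pigs. With 3 libraries this likeness describes 2 ratios per gene and nothing more.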

How the data were processed

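Liver RNA was sequenced as 1 pooled library for each of IM, CM and CMT. Per the labels, libraries were made with a TruSeq kit, and the submitters' notes name FastQC and TopHat. Reads were mapped with TopHat to the Sscrofa10.2 pig genome by the study's methods, and the program and annotation that gave the values are not given in the sources used here. The authors deposited FPKM values for 34579 features per library, with further columns that hold no measurements. No authors' comparison columns were used.

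Within a gene the 3 FPKM values are whole multiples of a step that depends on transcript length and on a divisor of the library (2.51 for IM, 3.42 for CM, 2.04 for CMT). The shortest length from 20 to 10000 bases that makes all 3 whole gave the reads, and a common factor of the reads can be lost. Mates of a fragment may both be counted. Recovered lengths of 9 of 13 mitochondrial genes lay within 2 bases of their annotation. In simulated libraries of 3000 genes above a minimum of reads, the reads were exact in all 3 libraries for 91.8% of genes. They were right up to a common factor for 100% of genes.

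Comparisons were ratios of FPKM without pseudocount or rescaling, with 95% Clopper-Pearson intervals on reads of 2 libraries and Woolf intervals for within-library ratios. A gene counted as past the fold when its ratio was 1.5 or more and each library gave it a deposited FPKM of 1 or more. No p-value was used, since each group has 1 library. The members, gene lists and rules were chosen with earlier results of these data known. The text names all members, list genes past 1.5-fold in CM versus IM or CMT versus CM with an FPKM of at least 10, key enzymes of the same steps whatever their values, copies of members, and the 5 genes nearest to PCK1. A few genes outside that rule, such as SLC2A13 and TRIB3, are named to account for a count. Copies of members were found in the study's lists of changed genes, so copies without a difference could be missed. Alternatives were a pseudocount of 1, an FPKM minimum of 10 or none, a fold of 2, an exact binomial read test at a false discovery rate of 0.05, and scaling by the median ratio, upper quartile, column sums or recovered reads. Scaling by hepatocyte markers, within-library ratios and list medians scaled by the upper quartile or median ratio were added after seeing the data. A few genes under this rule are left unreported. Coordinates and sequences of the members were not used here. Computations ran in Python 3.11.15 with statsmodels 0.14.6, matplotlib 3.10.9, scipy 1.17.1, pandas 2.3.3 and numpy 2.4.6.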

Additional observations from a re-analysis of the deposited data

How the results depend on the processing

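No paired analysis was possible because each group has 1 library and the labels carry no shared replicate numbers, and no library could be left out. The median log2 ratio of the members in CM versus IM was -0.48 scaled by the upper quartile, -0.29 by column sums, -0.26 by recovered reads and -0.051 by hepatocyte markers. In CMT versus CM it was 0.28, 0.16, 0.17 and -0.030 on the same scales. In CMT versus IM it was -0.11 by the upper quartile and 0.0071 by hepatocyte markers. The count of members lower in CM than in IM was 2 at a 2-fold threshold. No share of all features past 2-fold is given here to set beside the 2-fold counts. At 1.5-fold it was 2 when scaled by column sums, against 6.87% of features, by recovered reads, against 6.42%, or by hepatocyte markers, against 4.06%. On that last scale 1 member was higher, against 39.1%. The count higher in CMT than in CM was 1 at 2-fold and 1 by hepatocyte markers, the latter against 4.61% of features. In that comparison 1 was lower by column sums, against 22.9%, by recovered reads, against 22.4%, and by hepatocyte markers, against 35.0%. At 2-fold, 0 members were lower in CMT than in IM. A pseudocount of 1, the FPKM minimum and the read test left these counts within 1.5 times. Among all features past 1.5-fold, the share higher was 75.1% by column sums and 90.6% by hepatocyte markers in CM versus IM, and 34.2% by the upper quartile, 22.7% by column sums and 11.6% by hepatocyte markers in CMT versus CM. Of the member ratios, the sign turned for PFKL by the upper quartile and for PKLR by recovered reads in CMT versus IM, and by hepatocyte markers for PCK2, FBP1 and PKLR in CM versus IM, PCK2 and SLC2A2 in CMT versus CM and PKLR in CMT versus IM. The median of the cholangiocyte markers in CMT versus CM turned to 0.022 at an FPKM minimum of 10, where fewer of them remained. Expressing levels as shares of the column sum kept their order within a library and gave the ratios of column-sum scaling. Depth limited little here, since the member with the fewest recovered reads in a library had 862, but the spread between pigs was not measured.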
